A study of Mus musculus with 3 samples.

Results

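Of the 17209 genes listed in at least 1 of 3 expression tables, 88 fit a symbol pattern for cytosolic ribosomal protein genes. Members were genes whose mouse symbol, looked up from the Entrez Gene identifier, starts with Rpl, Rps or Rplp followed by a digit, or is Rpsa. Symbols of the Rps6k kinases and of pseudogenes marked -ps were left out, and the rule uses no measured value. The 88 members held 77 core genes, 46 of the large subunit and 31 of the small subunit, all of which were listed in every table. Another 7 members were paralogues of core genes (Rpl7l1, Rpl10l, Rpl22l1, Rpl36al, Rpl39l, Rps4l and Rps27l). The last 4 fit the symbol pattern but are neither core genes nor among these paralogues (Rpl32l, Rpl37rt, Rps23rg1 and Rps19bp1). Of these, Rps19bp1 encodes a protein that binds Rps19 rather than a ribosomal protein. Fau, which encodes a ribosomal protein fused to a ubiquitin-like protein, and Rack1 fall outside the symbol pattern and are given separately.

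Total RNA-seq covered mouse epiblast stem cells (EpiSCs) of strain 129, labelled passage 1, which were routinely grown on gelatin in serum with the inhibitors IWR1 and Y27. EpiSCs are pluripotent cells that resemble the epiblast after implantation. IWR1 stabilises Axin through tankyrase inhibition and dampens Wnt signalling, and Y27, taken here as Y27632, is a kinase inhibitor. For NT both inhibitors had been withdrawn overnight. For IWR1 the cells received 2 µM IWR1 during 12 h, and for Y27 they received 0.5 µM Y27 over the same time. The Y27 dose is as labelled, is low for Y27632 and could not be checked, so the strength of this treatment is unsure. Whether treated cells first went without inhibitor is not stated. Each group had 1 library, so no difference below has a replicate check and no test between groups was possible. Ranges after a fold or a share are 95% intervals that cover counting error only. Both treated libraries were compared with the same NT library, so their differences from it share its error.

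Ribosomal proteins and ribosomal RNA together form the large and small subunits of the cytosolic ribosome, which translates mRNA. Proliferating pluripotent cells make ribosomes at a high rate, and the subunits need their proteins in matched amounts. Vertebrate ribosomal protein mRNAs are short, and typically start with a pyrimidine tract (the 5′ terminal oligopyrimidine motif) through which the mTOR pathway controls their translation.

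The library totals of the deposited expected counts were 5767550 (NT), 5607725 (IWR1) and 5459332 (Y27). All 6 epiblast markers (Pou5f1, Sox2, Nanog, Fgf5, Otx2 and Dnmt3b) were detected in every library, with summed levels between 2096 and 2735 CPM (counts scaled to library size). Markers of naive pluripotent cells, 5 of 6 listed, summed to between 4.29 and 7.41 CPM, with Dppa3 listed in no table, Zfp42 at 0 in NT and Y27, and Nr0b1 at 0 in Y27. Fibroblast markers, 6 of 6 listed, summed to 115 CPM in NT, 71.7 CPM in IWR1 and 56.4 CPM in Y27, with Postn at 0 in IWR1. The 5 long noncoding RNAs used as a sign of RNA handling (Malat1, Neat1, Meg3, H19 and Xist) summed to 353 CPM in NT, 788 CPM in IWR1 and 1060.0 CPM in Y27, the opposite order to the ribosomal protein genes. In each library a single RNA held most of this sum, 263 CPM in NT, 628 CPM in IWR1 and 859 CPM in Y27. The part of these differences in the results below was not tested.

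Ribosomal protein genes were among the most abundant transcripts in all 3 libraries. The 88 members held 7.25% (7.23 to 7.27) of the counts in NT, 6.57% (6.55 to 6.59) in IWR1 and 6.06% (6.04 to 6.08) in Y27. Measured per length of transcript (FPKM), they held 20.4%, 19.3% and 18.4% of the summed values. NT was thus highest and Y27 lowest on both scales. These are shares of a library, and in bulk RNA fewer cells of a type and less RNA per cell cannot be told apart. The median FPKM of the 77 core genes was 1238 in NT, 1102 in IWR1 and 999 in Y27, against 6.15, 6.49 and 6.83 over all genes listed in the respective table. Of the 100 genes with the highest FPKM, 60 in NT, 62 in IWR1 and 63 in Y27 were core ribosomal protein genes.

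Most core genes lay close together. In NT the middle 50% of core genes spanned 875 to 1541 FPKM, and the whole range ran from 36.8 to 4229 FPKM. The medians of the large and small subunit genes were 1180 and 1261 FPKM in NT, 1091 and 1105 in IWR1, and 998 and 1043 in Y27. The ratio of large to small subunit counts was 1.5 in NT, 1.51 in IWR1 and 1.52 in Y27, so this ratio moved less than the total did.

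By the mean over the libraries, Rpl41, Rps2, Rplp1, Rpl23a and Rplp0 had the highest levels per length. Rpl41, which encodes a very small basic protein of the large subunit, was at 4229 FPKM in NT, 3579 in IWR1 and 3258 in Y27. Rps2, a small subunit protein near the mRNA entry channel, was at 4003, 3435 and 3111 FPKM. Rplp1, a stalk protein, was at 2765, 2401 and 2244 FPKM, and Rpl23a, a protein at the exit tunnel, at 2332, 2187 and 1978 FPKM. These genes stood highest in NT and lowest in Y27.

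At the low end of the order were Rps15a, Rpl22, Rpl21, Rpl31 and Rpl30. Rps15a, a small subunit protein, was at 36.8 FPKM in NT, 38.8 in IWR1 and 36.0 in Y27. Its listed length was 5158 nucleotides, the longest of the core genes, whose median was 708 and whose shortest, Rps28, was 328. FPKM is scaled by this length, so this level is hard to compare with those of the other core genes. In CPM Rps15a was at 195 in NT, 202 in IWR1 and 184 in Y27, near the 212, 190 and 179 of Rpl30. Rpl22 was at 149, 139 and 127 FPKM and Rpl21 at 281, 297 and 299 FPKM. Rpl31 was at 347, 340 and 313 FPKM, and Rpl30 at 405, 367 and 354 FPKM. Rps15a, Rpl30 and Rpl31 all had fractional counts, described below. The deposited FPKM of short members was above what count, length and library sum give. Among members under 600 nucleotides the median ratio was 1.06 in each library (n = 27), and over 1000 nucleotides it was 1.01 (n = 18 in NT). Deposited levels of the shortest genes thus stand slightly higher against longer ones than this recomputation gives. Which scale is nearer the true levels was not tested.

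**Figure D1:**
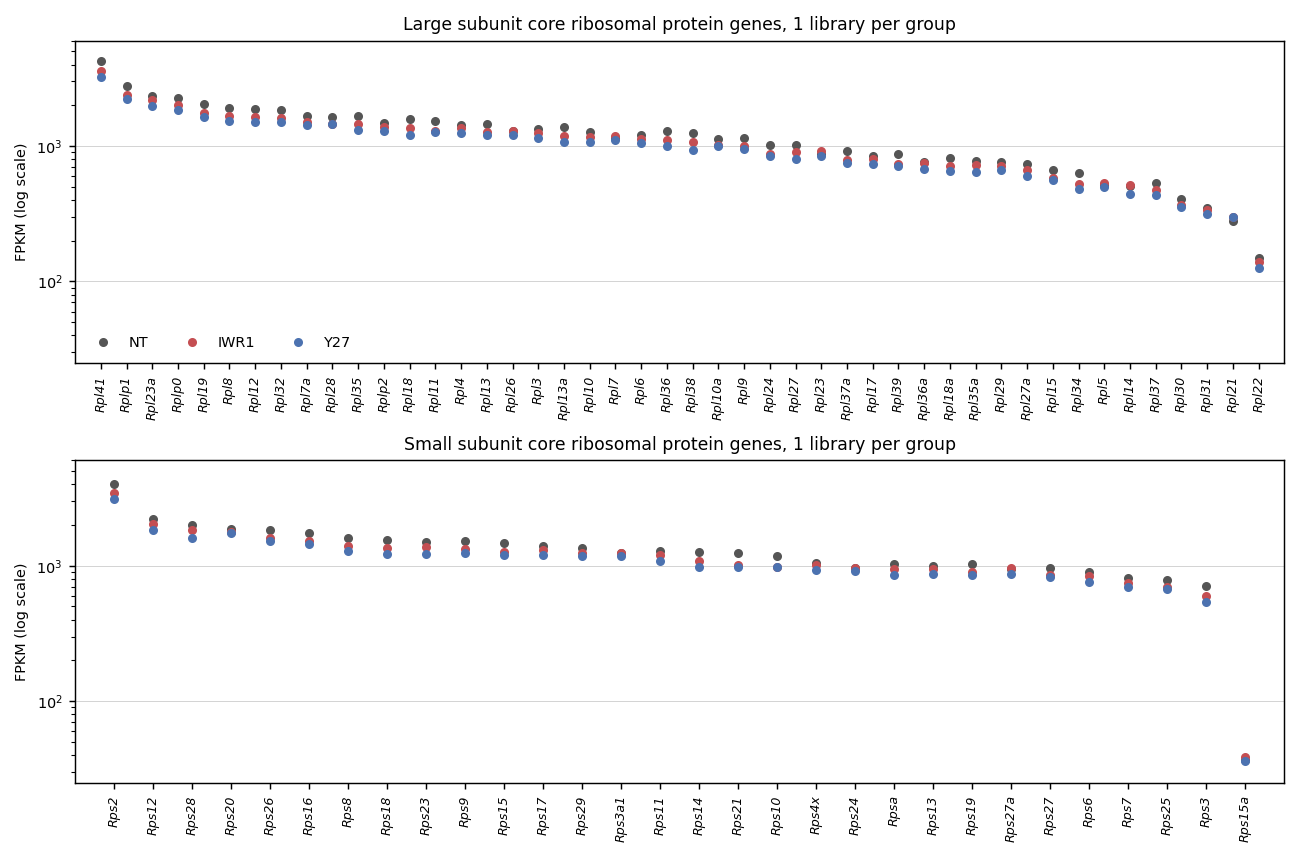
FPKM (log scale) of 76 of the 77 core ribosomal protein genes, large subunit above and small subunit below, ordered by the mean over 3 libraries, with 1 point per library (NT grey, IWR1 red, Y27 blue). Most genes lie within a narrow band, NT is usually the highest point and Y27 the lowest. Rps15a, with a listed length of 5158 nucleotides, stands apart below 40 FPKM.

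Promoter windows from RefSeq (GRCm38.p6), 250 bases before to 50 bases after a start, were found for 57 of the 77 core genes, 67 windows in all. The deposited files use another build (mm8), so these windows serve only to show the sequence class. The following lines run from 40 bases before the start to 20 bases of transcript, 5′ to 3′ on the coding strand, with the longest pyrimidine run at the start in capitals. They show a tract at the start (Rps6 and Rpl38), a tract before it (Rpl5), the tract of a paralogue (Rpl22l1) and the most abundant member, which has no long run here (Rpl41).
Rps6 (GRCm38.p6, chr4:86857348-86857407, minus strand): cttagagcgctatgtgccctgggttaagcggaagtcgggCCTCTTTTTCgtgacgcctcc
Rpl38 (GRCm38.p6, chr11:114668540-114668599, plus strand): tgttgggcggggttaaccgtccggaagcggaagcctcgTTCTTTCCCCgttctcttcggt
Rpl5 (GRCm38.p6, chr5:107900488-107900547, plus strand): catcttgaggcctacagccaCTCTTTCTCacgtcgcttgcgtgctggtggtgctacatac
Rpl22l1 (GRCm38.p6, chr3:28805468-28805527, plus strand): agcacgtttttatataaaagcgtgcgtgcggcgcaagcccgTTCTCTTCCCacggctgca
Rpl41 (GRCm38.p6, chr10:128549149-128549208, minus strand): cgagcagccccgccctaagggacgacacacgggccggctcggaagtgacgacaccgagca

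A coding-strand pyrimidine run of at least 8 bases touched the 30 bases on either side of the start in 67.2% of the 67 core windows and in 27.3% of all 32851 windows. Runs of at least 10, which are a subset of these, occurred in 53.7% and 13.9%. The median longest run was 10 bases in core windows and 6 in all windows. A C at the annotated start followed by 4 pyrimidines was found in 19.4% of core windows and 2.51% of all windows. Of the letters searched on both strands of the whole window, CCGGAAG (the core of ETS family sites) was in 37.3% of core and 8.86% of all windows, AAGATGG (YY1) in 16.4% and 6.34%, GGGCGG (GC box) in 61.2% and 35.7%, CACGTG (E-box) in 11.9% and 7.15%, and TATAAA in 8.96% and 13.6%. A match describes the window only. The 41 core genes with a run of at least 8 had median log2 differences of -0.20 for IWR1 over NT and -0.32 for Y27 over NT, against -0.18 and -0.33 for the 16 with shorter runs, so the genes did not separate by this feature.

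Between IWR1 and NT, nearly all core genes were slightly lower in IWR1, each by less than 0.32 on the log2 scale. Log2 differences here are log2((CPM + 1)/(CPM + 1)), and 84 of the 88 members passed the level filter, an average of 1 CPM or more, as did 12955 genes in all. Of the 77 core genes 71 were lower in IWR1, against 49.9% of all genes compared. Of the 2295 other genes that averaged 100 CPM or more, 1277 were lower. The counting interval of the fold lay below 1 for 65 core genes, against 18.6% of all genes and 35.3% of these abundant other genes. Such intervals narrow as counts rise, and the median level was 733 CPM in core genes, 28.9 in all genes and 169 in these others. The interval shares, here and in the pairs below, are therefore not matched for level. The median log2 difference was -0.18 over the core genes and -0.17 over the 84 members, against 0.00 over all genes compared and -0.04 over these abundant other genes. None of the 77 core genes was apart by 0.32 or more on the log2 scale, while 15.8% of all genes were lower and 23.3% higher by that much. Summed over the 88 members, counts were 1.12-fold lower (1.12 to 1.13) in IWR1.

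Rps21, a small subunit protein, had the most negative difference. It was at 461 CPM in NT, 370.5 CPM in IWR1 and 350.2 CPM in Y27, 1.24-fold lower in IWR1 (1.17 to 1.32), with a log2 difference of -0.31 that was -0.13 with the length and GC trend removed. Rpl38, a large subunit protein known from mice with skeletal patterning defects, was at 433 CPM in NT, 358 CPM in IWR1 and 312 CPM in Y27, 1.21-fold lower in IWR1 (1.14 to 1.28). Rps10 and Rpl39 had log2 differences of -0.28 and -0.27. For all of these NT was highest and Y27 lowest.

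The 6 core genes that were not lower in IWR1 were Rpl21, Rps15a, Rpl23, Rpl14, Rpl5 and Rpl7, of which Rps15a (-0.15) and Rpl5 were lower with that trend removed. Rpl5, which joins Rpl11 and a small ribosomal RNA in a particle that can bind Mdm2, was at 1078 CPM in NT, 1091 CPM in IWR1 and 990 CPM in Y27, with a log2 difference of 0.02. Its partner Rpl11 was at 879, 737 and 705 CPM, 1.19-fold lower in IWR1 (1.14 to 1.24). The GC content of these transcripts also differed, 42.7% for Rpl5 and 52.9% for Rpl11, and with the trend on length and GC removed (described below) their order turned round, with log2 differences of -0.16 for Rpl5 and -0.06 for Rpl11. Rpl21 was at 535 CPM in NT, 556 CPM in IWR1 and 547 CPM in Y27, and its interval of 0.989 to 1.09 for the fold of IWR1 over NT included 1.

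Between Y27 and NT the direction was the same and the differences were larger. Of the 77 core genes 76 were lower in Y27, against 51.3% of all genes and 1441 of the 2295 abundant other genes. The counting interval lay below 1 for 75 core genes, against 22.2% of all genes and 47.1% of abundant other genes. The median log2 difference was -0.32 over the core genes and over the 84 members, against -0.02 over all genes and -0.11 over other genes with at least 100 CPM. Lower by at least 0.32 on the log2 scale were 38 core genes, 23 of the large and 15 of the small subunit, where 18.4% of all genes were. No core gene was higher by that much, where 25.8% of all genes were. Summed over members, counts were 1.24-fold lower (1.235 to 1.246) in Y27.

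Rpl38 had the most negative difference of the core genes, 1.39-fold lower in Y27 (1.30 to 1.48), with a log2 difference of -0.47 that was -0.15 with the length and GC trend removed. Rpl18, a large subunit protein, was at 1104 CPM in NT, 929 CPM in IWR1 and 808 CPM in Y27, 1.37-fold lower (1.32 to 1.42). Rps3, at the mRNA entry channel, was at 1344, 1119 and 995 CPM, 1.35-fold lower (1.30 to 1.40), and Rpl41 was 1.35-fold lower (1.31 to 1.39). All of these stood in the same order over the libraries. Rpl21 alone among core genes was not lower in Y27, with a log2 difference of 0.03.

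The stalk of the large subunit, which recruits translation factors, followed the same order. Rplp0 was at 3121 CPM in NT, 2728 CPM in IWR1 and 2427 CPM in Y27, 1.14-fold lower in IWR1 (1.12 to 1.17) and 1.29-fold lower in Y27 (1.26 to 1.32). Rplp1 was at 1237, 1057 and 967 CPM, and Rplp2 at 622, 568 and 526 CPM. Rplp2 differed least, by 1.10-fold in IWR1 and 1.18-fold in Y27.

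Other members with a known special role moved within the same range. Rps6, the substrate of the S6 kinases, was at 1259 CPM in NT, 1169 CPM in IWR1 and 1025 CPM in Y27. Rps19, which is mutated in Diamond-Blackfan anaemia, was at 633, 547 and 502 CPM. Rpsa, also described as a laminin receptor, was at 1958, 1754 and 1567 CPM. NT was highest and Y27 lowest for each of them. Rpl10, which joins the large subunit late in its assembly, had log2 differences of -0.16 in IWR1 and -0.32 in Y27, and Rpl24, mutated in belly spot and tail mice, of -0.23 and -0.33. Rps27a, made as a fusion with ubiquitin, measured 686 CPM in NT and 683 CPM in IWR1, and was 1.14-fold lower in Y27 (1.09 to 1.19).

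The direct comparison of the treated libraries does not use NT. All 77 core genes, and all 84 members compared, were higher in IWR1 than in Y27, where 50.2% of all genes were lower. Of the 2295 abundant other genes 1420 were higher. The interval lay above 1 for 68 core genes, against 16.0% of all genes and 35.3% of abundant other genes. The differences were small, with a median of 0.15 over core genes and 0.16 over members, against -0.00 over all genes and 0.06 over other genes with at least 100 CPM. No core gene was apart by 0.32 on the log2 scale, where 13.8% of all genes were higher and 18.4% lower by that much. Rpl14 had the highest core value, 1.20-fold (1.13 to 1.27), a log2 difference of 0.26 that became 0.13 with the counts of its pseudogene added, and Rpl21 the lowest, 1.02-fold (0.967 to 1.07). Rps10, Rpl28, Rpl11 and Rps27 were also near the bottom, with log2 differences of 0.03, 0.04, 0.06 and 0.06. Over the 3 libraries 71 core genes stood in the order NT, IWR1, Y27, and the other 6 were highest in IWR1. The share of all genes in that order was not counted, so the order is not shown to be particular to these genes.

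**Figure D2:**
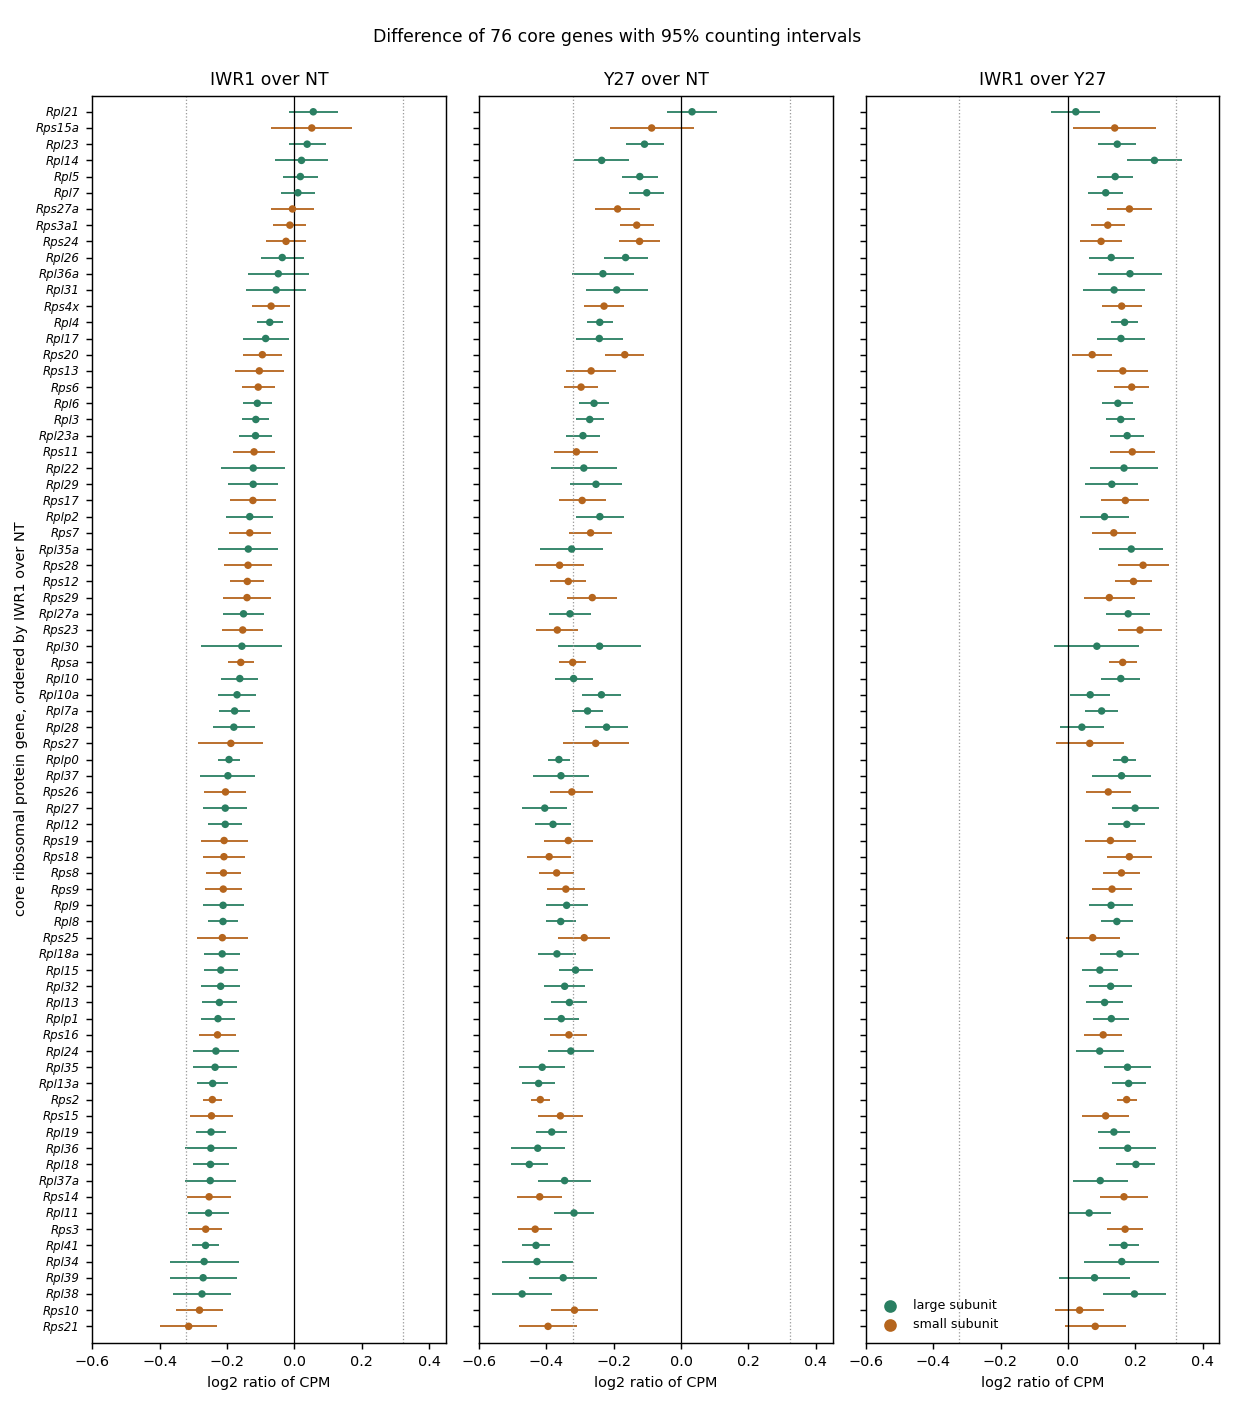
Log2 ratio of CPM of 76 of the 77 core genes in IWR1 over NT, Y27 over NT and IWR1 over Y27, with genes ordered by the first panel; bars are 95% counting intervals and dotted lines mark 0.32 either side of 0. The points lie mostly left of 0 in the first panel, further left in the second, and all right of 0 in the third.

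Larger differences were seen only outside the core genes. Past 1.5-fold in IWR1 over NT was 1 of 84 members, Rpl37rt (higher), where 6.26% of all genes were at least 1.5-fold lower and 11.0% higher. In Y27 over NT there were 2, Rpl37rt (higher) and Rps19bp1 (lower), where 5.37% of all genes were at least 1.5-fold lower and 15.1% higher. In IWR1 over Y27 there was 1, Rpl37rt (higher), where 8.27% of all genes were at least 1.5-fold lower and 5.03% higher. Past 2-fold was only Rpl37rt in IWR1 over NT, where 4.59% of all genes were 2-fold apart in either direction, and the shares of all genes were 7.05% in Y27 over NT and 4.31% in IWR1 over Y27.

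The differences from NT varied with the composition of the transcripts. The listed length of core genes had a median of 708 nucleotides against 2886 for all genes compared, and GC content, from GENCODE transcripts, a median of 51.6% (41.3 to 60.8) against 50.5%. Across the 77 core genes the log2 difference ran against GC content with Pearson's r of -0.58 for IWR1 over NT and -0.56 for Y27 over NT, but 0.04 for IWR1 over Y27. Across other genes r was -0.39, -0.51 and 0.17. The correlation with log2 length across core genes was 0.43, 0.37 and 0.05, and the first of these became 0.36 and the second 0.30 without Rps15a. These are descriptions across genes that share the libraries, and no p is given.

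Set beside other genes of at least 100 CPM and the same length, the core genes differed little from them. Among genes of 600 to 1000 nucleotides the median for IWR1 over NT was -0.21 for 30 core genes and -0.21 for 79 others, and for Y27 over NT -0.33 and -0.30. Under 600 nucleotides the medians were -0.19 for 29 core genes and -0.11 for 26 others in IWR1, and -0.32 and -0.29 in Y27. At the same GC content core genes were lower than others: from 45% to 48% GC the medians for Y27 over NT were -0.19 for 9 core genes and 0.06 for 354 others, and at 54% and above -0.37 for 22 core genes and -0.24 for 653 others. With the trend on length and GC removed over all genes, the member median became -0.00 for IWR1 over NT, -0.08 for Y27 over NT and 0.07 for IWR1 over Y27, against 0.03, 0.04 and -0.00 over all genes. With that trend removed 42 of 84 members were lower in IWR1 than NT, where 45.3% of all genes with a GC value were. There were 65 of 84 lower in Y27 than NT, where 44.4% of all genes were, and 12 of 84 lower in IWR1 than Y27, where 50.3% were. Among other genes of at least 100 CPM, 48.2% were lower in IWR1 than NT, 56.4% in Y27 than NT and 38.4% in IWR1 than Y27. The medians of these abundant genes were 0.01, -0.03 and 0.05. The order of single genes changed too: Rpl15, a large subunit protein with a GC content of 43.2% that is named here after its values were seen, was then the lowest core gene, at -0.37 for IWR1 over NT and -0.48 for Y27 over NT. Of 120 values of named members and pairs, 87 moved by more than their counting error under this setting. So the members' share and median for IWR1 over NT were near those of all genes on this scale. Most members were still lower in Y27 than in either of the others, and so were most abundant other genes, by a smaller share. The source of the trend was not tested.

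**Figure D3:**
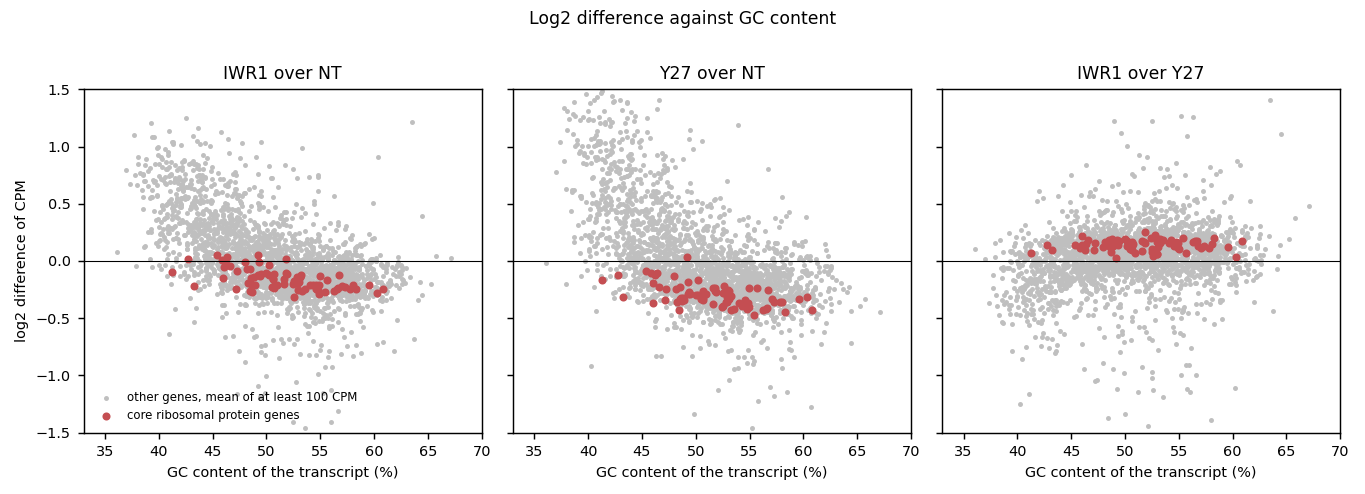
Log2 difference of CPM against GC content of the transcript for the 77 core ribosomal protein genes (red) and other genes averaging 100 CPM or more (grey), in the 3 pairs of libraries; a few other genes lie beyond the axis limits. In both comparisons with NT the red points slope down with GC as the grey ones do, and in IWR1 over Y27 they form a flat band above 0.

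Counts of some members were fractional, as happens where reads that match several genes are divided among them. Of the 88 members 61 had whole counts in every library (within 0.005) and 27 did not, and among core genes 55 were whole (71.4%, against 77.9% of all genes compared). There were 7 listed pseudogenes marked -ps, which carry the symbols of 6 core genes. For Rpl14, Rpl31, Rpl34 and Rps19 the count of the gene and that of its pseudogene added up to a whole number in every library (within 0.006), a pattern looked for after the counts had been seen. Rpl14 and Rpl14-ps1 gave sums of 4504 (NT), 4106 (IWR1) and 3727 (Y27), and Rpl31 and Rpl31-ps12 to 3587, 3134 and 2866. Rps15a and Rplp2 with their pseudogenes did not add up to whole numbers in every library.

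The division differed between libraries for some of these pairs. Rpl14-ps1 held 41.1% of the Rpl14 sum in NT, 35.2% in IWR1 and 40.6% in Y27. Rpl14 alone had a log2 difference of 0.02 for IWR1 over NT, while the sum had -0.11. For Rpl31 the values were -0.05 alone and -0.18 for the sum, with Rpl31-ps12 holding 41.7% in NT, 36.6% in IWR1 and 37.3% in Y27. So Rpl14, listed above among the genes not lower in IWR1, was lower there once the divided counts were put together. Rps15a showed the same change of sign, from 0.05 alone to -0.05 with Rps15a-ps4 and Rps15a-ps6 added, which held 49.4% of that sum in NT, 45.6% in IWR1 and 47.2% in Y27. For Rps19, where Rps19-ps3 held at most 1.2%, the value was -0.21 either way.

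The same search over all gene models paired other members with rows that carry no ribosomal protein symbol. Rpl30 and Gm12191 gave sums of 2218 (NT), 1995 (IWR1) and 1878 (Y27), with Gm12191 holding 45.9%, 46.7% and 46.9%, so the level of Rpl30 given above holds only its own part of these counts. Rplp0 and Rpl7a were completed by Gm5779 and Gm5766, which held at most 0.851% and 0.0509% of the sums. Of the 15 members with fractional counts in all 3 libraries, 8 had such a completing row.

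**Figure D4:**
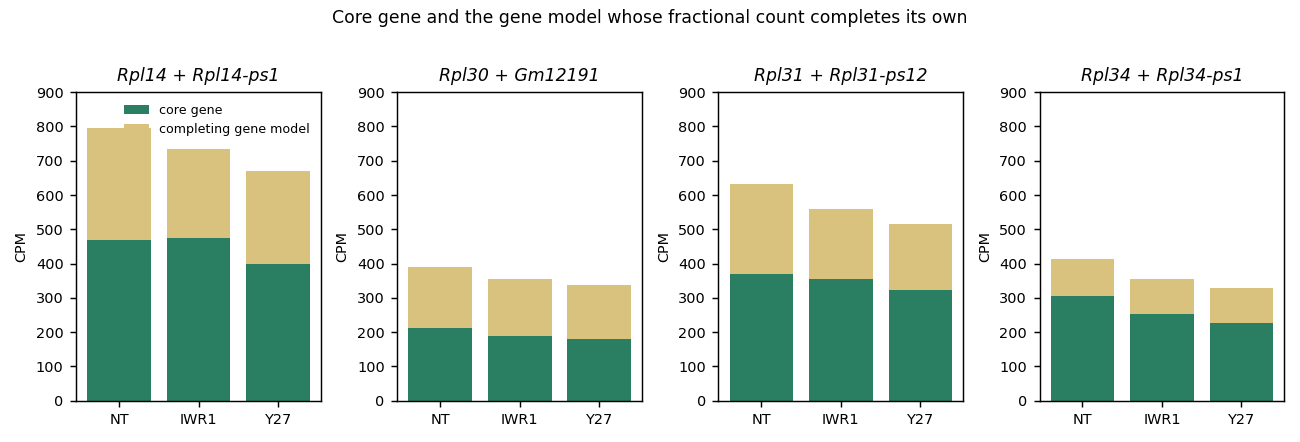
CPM of 4 core genes (green) stacked with the CPM of the gene model whose fractional count completes theirs to a whole number (yellow), in NT, IWR1 and Y27. The stacks step down from NT to IWR1 to Y27 in all 4 panels, also for Rpl14, whose own part does not.

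The paralogues differed widely in level from their core partners. Rpl22l1, which encodes a paralogue of the RNA-binding protein Rpl22, was at 131 FPKM in NT, 163 in IWR1 and 137 in Y27, next to 149, 139 and 127 for Rpl22. It made up 46.8%, 54% and 51.9% of the pair, so it was near its partner, in deposited FPKM below it in NT and above it in IWR1. In Y27 the levels were closer than the counting interval of Rpl22l1. Its deposited FPKM was 1.06 times the value recomputed from counts in each library, and its counts were fractional in NT and Y27. The order of the pair in IWR1 is therefore uncertain as well. In CPM it was 1.22-fold higher in IWR1 than in NT (1.06 to 1.41) and 1.00-fold in Y27 (0.861 to 1.17), while Rpl22 was 1.09-fold lower (1.02 to 1.16) and 1.22-fold lower (1.14 to 1.31). The GC content of Rpl22l1 was 40.6% and that of Rpl22 49.2%, and with the length and GC trend removed the log2 difference of Rpl22l1 was 0.18 for IWR1 over NT and -0.10 for Y27 over NT.

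Rpl36al, a paralogue of Rpl36a, was at 393 FPKM in NT, 435 in IWR1 and 384 in Y27, or 34.1%, 36.8% and 36.4% of the pair. It was highest in IWR1, 1.09-fold higher than in NT (1.004 to 1.18). Rpl36a was 1.03-fold lower there (0.971 to 1.10), with an interval that included 1 and with fractional counts. Rps27l, which is known as a p53 target, was at 525, 468 and 429 FPKM and kept close to its partner Rps27 with 35.5%, 35.5% and 34.1% of the pair. Rpl7l1 was at 90.6, 84.3 and 74.5 FPKM beside 1154, 1181 and 1116 FPKM for Rpl7, which made its share 7.28%, 6.67% and 6.26%. Rpl7l1 was lower in IWR1 than in NT (log2 difference -0.13), where Rpl7 was at 0.01.

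The remaining paralogues and Rpl32l were nearly undetected. Rpl10l, known from the testis, had 1, 1 and 0 counts in NT, IWR1 and Y27, and Rpl39l, also known from the testis, had 2, 1 and 0. Rps4l had 0, 4 and 1 counts, and Rpl32l had 2.46 counts in NT and no row in the other tables. These 4 members were the ones below the level filter, and a count of 0 allows up to 3 counts, or 0.529 CPM in NT, 0.536 in IWR1 and 0.539 in Y27. The partners Rpl10, Rpl39, Rps4x and Rpl32 were at 1281, 875, 1052 and 1849 FPKM in NT.

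**Figure D5:**
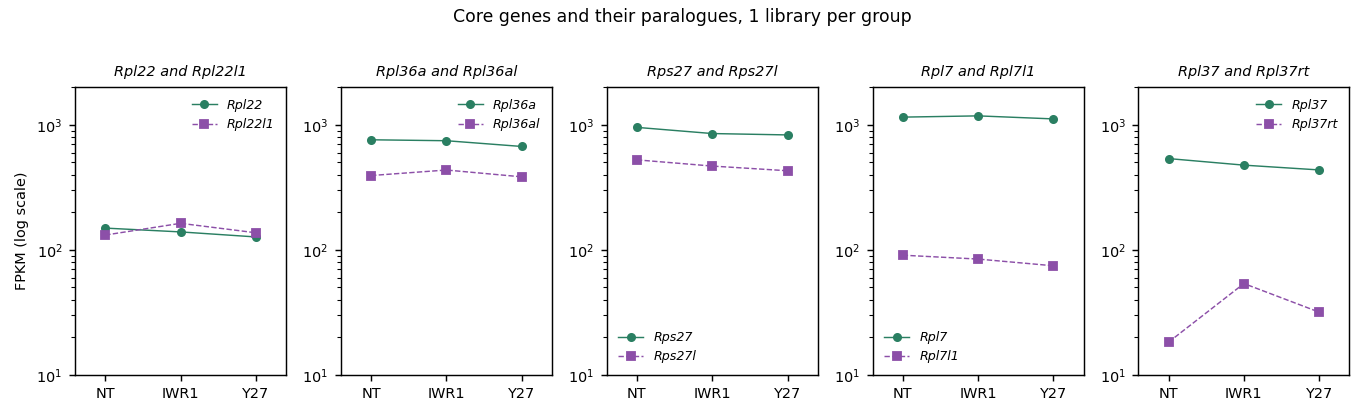
FPKM (log scale) of 5 core genes (green circles) and the paralogue or retrotransposed copy of each (purple squares) in NT, IWR1 and Y27, 1 library per group; lines only join the points of 1 gene. Rpl22l1 crosses Rpl22 between NT and IWR1, the other pairs keep their order, and Rpl37rt is highest in IWR1.

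Rpl37rt, Rps23rg1 and Rps19bp1, which are neither core genes nor among the listed paralogues, had lower counts than any core gene. Rpl37rt and Rps19bp1 held the differences past 1.5-fold. Rpl37rt, a retrotransposed copy of Rpl37, had 68.7 counts in NT, 196 in IWR1 and 114 in Y27, or 12.1, 35.1 and 20.4 CPM. It was 2.90-fold higher in IWR1 (2.18 to 3.84) and 1.68-fold higher in Y27 (1.24 to 2.30) than in NT, while Rpl37 was at 463, 403 and 361 CPM. Its counts were fractional, and reads divided between near-identical copies cannot be told apart, so these values are uncertain. Rps23rg1, a retroposed copy of Rps23, had 55.0, 68.1 and 44.4 counts, and its counts and those of Gm5148 summed to 3971, 3368 and 3004. Gm5148 held 98.6%, 98.0% and 98.5% of that sum and Rps23rg1 the rest, and its log2 difference of 0.30 for IWR1 over NT is as uncertain.

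Rps19bp1, whose product binds Rps19 and the deacetylase Sirt1, had whole counts of 238 in NT, 202 in IWR1 and 135 in Y27. It was 1.73-fold lower in Y27 than in NT (1.40 to 2.15) and 1.16-fold lower in IWR1 (0.960 to 1.41), where the interval included 1. Its log2 difference for Y27 over NT was -0.77, and -0.43 with the length and GC trend removed.

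Fau and Rack1, outside the symbol pattern, lay in the direction of most core genes. Fau was at 688 CPM in NT, 569 CPM in IWR1 and 510.4 CPM in Y27, and Rack1, a scaffold on the small subunit, at 2245, 1936 and 1718 CPM. The log2 differences of Fau were -0.27 for IWR1 over NT, -0.43 for Y27 over NT and 0.16 for IWR1 over Y27, and those of Rack1 were -0.21, -0.39 and 0.17.

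Mitochondrial ribosomal protein genes and other sets of short housekeeping transcripts lay in the direction of the members. They differed by slightly less than the members in IWR1 over NT (member median -0.17) and by less in the other pairs. Of all genes compared, 49.9% were lower in IWR1 and 51.3% in Y27 than in NT. Of 78 mitochondrial ribosomal protein genes 58 were lower in IWR1 and 65 in Y27 than in NT, with medians of -0.15 and -0.23. The 31 proteasome genes had medians of -0.15 and -0.28, with 23 and 27 lower, and the 60 oxidative phosphorylation genes compared -0.15 and -0.21, with 46 and 49 lower. With the length and GC trend removed these medians were 0.00 and -0.03, -0.05 and -0.11, and -0.00 and 0.02. For IWR1 over Y27 the medians were 0.09, 0.10 and 0.06, against 0.16 for the members.

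Translation factors, which work with the ribosome, were divided. Of 39 genes 24 were lower in IWR1 (49.9% of all genes) and 24 in Y27 (51.3%) than in NT, with medians of -0.06 and -0.19. Eef1a1, the elongation factor that delivers aminoacyl-tRNA, was at 9995 CPM in NT, 9324 CPM in IWR1 and 8438 CPM in Y27, and Eef2, which moves the ribosome along, at 4480, 3959 and 3601 CPM. Eif3a, a subunit of an initiation factor with a transcript GC content of 44.5%, was at 371, 695 and 818 CPM, 2.20-fold higher in Y27 (2.09 to 2.32). The elongation factors thus stood in the order of the core genes and Eif3a in the opposite order. With the length and GC trend removed the log2 differences from NT in IWR1 and Y27 were 0.65 and 0.77 for Eif3a. They were -0.08 and -0.17 for Eef1a1, and 0.00 and -0.08 for Eef2.

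Ribosome assembly genes differed from ribosomal protein genes in their position in the IWR1 library. Of 46 such genes 14 were lower in IWR1 than in NT (49.9% of all genes), with a median of 0.11, and 34 were lower in Y27 than in NT (51.3%), with a median of -0.18. With the length and GC trend removed these medians were 0.21 and -0.09. In IWR1 over Y27, 3 of 46 were lower (50.2%) and 17 were higher by at least 0.32 (13.8%), with a median of 0.28, and 0.27 with the trend removed. Npm1, a nucleolar chaperone, was at 1903 CPM in NT, 2984 CPM in IWR1 and 2953 CPM in Y27, and Ncl, nucleolin, at 1078, 1943 and 1841 CPM. Both were lowest in NT, and their GC contents were 42.5% and 42.8%. With the length and GC trend removed the log2 differences of Npm1 from NT went from 0.65 to 0.51 in IWR1 and from 0.63 to 0.48 in Y27. Those of Ncl went from 0.85 to 0.38 and from 0.77 to 0.07. Rrp12, a factor of subunit export, was at 144, 155 and 105 CPM, and Nhp2, a protein of small nucleolar particles, at 236, 237 and 166 CPM. These were lowest in Y27, with NT and IWR1 close together.

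Of 17 genes of the Myc, mTOR and p53 pathways, 11 were lower in IWR1 (49.9% of all genes) and 13 in Y27 (51.3%) than in NT. Their medians were -0.05 and -0.10. Mycn, a Myc family transcription factor of embryonic cells, was at 196 CPM in NT, 328 CPM in IWR1 and 181 CPM in Y27, 1.67-fold higher in IWR1 than in NT (1.55 to 1.80). Myc was at 73.2, 80.2 and 62.5 CPM, and Mtor at 140, 133 and 135 CPM. Mycn was thus highest in IWR1, where core ribosomal protein genes were intermediate.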

How the data were processed

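RNA of 3 EpiSC libraries was analysed, 1 per group, with groups taken from the labels. Tables hold length, expected count and FPKM per Entrez Gene identifier, per the file headers. The authors' deposited expected counts are estimates of reads and are not normalized. The authors' deposited FPKM values are scaled to length and library size. Bowtie 0.12.2 and mm8 are named in the submitters' processing notes; the sources used here do not name the counting tool. Symbols were matched for 99.7% of identifiers (GRCm38.p6).

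Counts were scaled by TMM (edgeR 4.0.16, R 4.3.3; factors 0.983, 0.998 and 1.02). Genes averaging 1 CPM or more were compared with a pseudocount of 1 CPM; a gene absent from a table was taken as 0. Fold intervals are exact (conditional binomial, Clopper-Pearson) and share intervals are Wilson intervals, both on rounded counts. The trend was a cubic polynomial of log2 length and GC content, which was available for 99.0% of genes compared. Python 3.11.15 with pandas 2.3.3, numpy 2.4.6 and scipy 1.17.1 was used, and the steps were tested on simulated data.

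The set of genes to study, the gene lists and the settings were chosen with earlier results of these data known. Named genes were the 5 members with the highest and the 5 core genes with the lowest FPKM, the 5 largest differences in each direction and pair (at least 5 CPM and 30 reads), all paralogues with partners, members not encoding ribosomal proteins, selected members of known role, and up to 4 genes per other list. Of the named genes of other lists, only some are printed. A core gene and a gene outside the symbol pattern are not reported here. Alternatives were other pseudocounts, scalings, level filters and thresholds, FPKM, whole counts only, core genes only, pseudogene counts added and trend removal.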

Additional observations from a re-analysis of the deposited data

How the results depend on the processing

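No paired analysis was possible because each group had 1 library, and none could be left out. Every gene had a single entry, so using each entry on its own changed nothing. Under other pseudocounts (0.1 and 5 CPM), scalings (library total, DESeq2 1.42.0 size factors, upper quartile), level filters, FPKM, whole counts only and core genes only, the member medians stayed within the counting error of a typical member. Without length and GC trend the medians were -0.00040, -0.076 and 0.066 for IWR1 over NT, Y27 over NT and IWR1 over Y27, and without length trend alone -0.041, -0.10 and 0.081. With the trend fitted on other genes only they were -0.0022, -0.084 and 0.073, and on other genes of at least 100 CPM 0.037, -0.027 and 0.068, so that the sign for IWR1 over NT rests on the trend; these last fits, and the addition of pseudogene counts to core genes, were chosen after seeing the data.

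The count of members past 1.5-fold in IWR1 over NT was 2 with no level filter and 0 with whole counts or core genes only. In Y27 over NT it was 1 with a pseudocount of 5 CPM, whole counts only, or either trend removed, 0 with core genes only or at 2-fold, and 42 at 0.32 on the log2 scale. In IWR1 over Y27 it was 2 with a pseudocount of 0.1 CPM, 0 with whole counts or core genes only or at 2-fold, and 3 at 0.32. The share of members in NT, IWR1 and Y27 was 20.4%, 19.3% and 18.4% of FPKM, 5.21%, 4.72% and 4.37% with whole counts only, 7.17%, 6.49% and 6.0% for core genes, and 7.34%, 6.65% and 6.14% with pseudogenes added. NT was highest and Y27 lowest in each. Without level filter Rps4l was added, and with a pseudocount of 0.1 CPM Rps23rg1. In Y27 over NT, Rps19bp1 was the member past 1.5-fold with a pseudocount of 5 CPM or whole counts only, and Rpl37rt with either trend removed. The low counts of Rpl37rt and Rps23rg1 limit their folds, and 1 library per group limits all of them.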
